A study of Mus musculus with 17 samples.

Results

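Astrocyte nuclei were chosen from single-nucleus RNA-seq libraries (sNucDrop-seq) of mouse neocortex by the transcripts they held. A barcode was kept when it had 600 to 5000 genes and under 5% mitochondrial UMIs (unique molecular identifiers, each standing for 1 captured transcript). A kept nucleus counted as an astrocyte nucleus when at least 3 of the 8 genes Slc1a3, Gja1, Aqp4, Plpp3, Ntsr2, Acsbg1, Bmpr1b and Gpc5 had a UMI, when the neuronal genes Slc17a7, Gad1 and Gad2 had at most 1 UMI together, and when Pdgfra, Opalin, Mog and Flt1 had 0. Of 40000 barcodes 31486 were kept, and of these 2037 held at least 3 of the 8 genes. The neuronal limit left out 316 of the 2037, and the limit on genes of oligodendrocytes, their precursors and endothelial cells left out a further 217, so that 1504 nuclei remained (4.78% of the kept nuclei).

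The study subjected adult male C57BL/6J mice to 12 days of chronic unpredictable stress (CUS), in which the stressors vary, and compared them with unstressed control mice. For sNucDrop-seq, the neocortex of 4 control and 4 CUS mice at postnatal day 80 was used, with CUS tissue taken 24 h after the last stressor. For bulk nuclear RNA-seq, the medial prefrontal cortex (mPFC) of 4 control and 5 CUS mice at postnatal day 90 was used, taken from other mice after behavioral testing. Control mice were handled every day and kept in another room than the CUS mice, so the room and the stress cannot be told apart. Each library came from 1 mouse, and the mouse is the replicate throughout. The study reports a strong batch effect in its sNucDrop-seq comparison, with control and CUS mice in each batch. The labels do not give the sequencing batch of each mouse, so no batch term was fitted.

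Astrocytes are the glia that take up glutamate and potassium at synapses, couple to one another through gap junctions, cover blood vessels with water channel-bearing end feet, and make cholesterol and lipoproteins for neurons. They carry receptors for the stress hormone corticosterone and for noradrenaline. Metallothioneins, small proteins that bind zinc and copper, are among the proteins that astrocytes of the cortex make. Mt1 and Mt2 are induced by metals and glucocorticoids, whereas Mt3, the brain form, is not known for such induction.

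The promoters of the 3 metallothionein genes that were measured lie side by side on chromosome 8 and are shown because this family had the largest median difference between CUS and control astrocyte nuclei among the lists of astrocyte functions. The sequences are the 250 bases before the start of each gene on the plus strand (RefSeq, GRCm38.p6), with matches to the metal response element, TGCGCNC or TGCACNC on either strand, in capitals. Mt1 (chr8:94178839-94179088) has 1 match, 23 bases before the start, Mt2 (chr8:94172368-94172617) has 3, at 223, 128 and 50 bases, and Mt3 (chr8:94152357-94152606) has 0.
Mt1: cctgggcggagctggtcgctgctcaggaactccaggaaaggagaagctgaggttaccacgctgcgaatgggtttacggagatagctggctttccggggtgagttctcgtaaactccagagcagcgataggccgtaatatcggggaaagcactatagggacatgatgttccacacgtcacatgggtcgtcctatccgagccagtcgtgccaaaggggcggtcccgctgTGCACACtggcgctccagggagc
Mt2: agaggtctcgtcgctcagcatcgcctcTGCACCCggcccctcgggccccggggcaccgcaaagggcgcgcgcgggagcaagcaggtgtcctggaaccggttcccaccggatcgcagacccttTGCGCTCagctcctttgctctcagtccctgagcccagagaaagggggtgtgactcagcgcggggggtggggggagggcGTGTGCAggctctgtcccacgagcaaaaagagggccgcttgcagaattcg
Mt3: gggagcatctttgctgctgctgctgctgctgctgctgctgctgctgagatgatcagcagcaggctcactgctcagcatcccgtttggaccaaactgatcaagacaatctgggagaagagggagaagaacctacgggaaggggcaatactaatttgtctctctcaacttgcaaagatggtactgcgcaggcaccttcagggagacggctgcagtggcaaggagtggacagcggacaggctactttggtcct
Of 27025 genes with a promoter sequence, 23.8% held at least 1 match in the same window and 1.46% held 3 or more, so a single match is common and 3 are rare. These matches are a description of the letters only. They depend on the start used. The annotation of the bulk counts places the start of Mt1 at 94179082, inside the window, and that of Mt2 at 94172664, beyond it. Bases after the starts used here were not searched, so the counts cover these windows only.

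The nuclei held the transcripts that define astrocytes beyond the genes used to choose them. Slc1a2, the main glutamate transporter of the forebrain, reached 4507 CPM (counts per gene scaled to the same total in every library, here of UMIs) against 464 in the other kept nuclei, and Apoe, the lipid carrier, reached 2824. Among genes with a UMI in at least 25% of the nuclei, the leading genes outside the rule by fold were Grin2c, an NMDA receptor subunit (45.2% of the nuclei against 0.994% of the others, 82.5-fold), Slc7a10, a serine transporter (65.9-fold), Atp13a4 (62.5-fold), Gm6145 (59.3-fold), S1pr1, a sphingosine phosphate receptor (56.7-fold), Phkg1 (50.6-fold), Mfge8 (48.6-fold) and Mertk, a phagocytic receptor (48.3-fold). They were followed at 47.9- to 43.3-fold by Sdc4, F3, Fgfr3, Slco1c1, Gm26512, Plcd4 and Gm973. Of 738 genes outside the rule that had a UMI in at least 25% of the nuclei, 173 were at least 2-fold and 72 at least 8-fold over the other nuclei. These folds follow from how the nuclei were chosen and carry no test. Transcripts of neurons were present as well: Meg3 had 3925 CPM, Snap25 1282, Syt1 1928 (0.466 of the other nuclei) and Slc17a7 58.2 (0.325 of the other nuclei).

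The 8 genes of the rule were not equally frequent. To set nuclei side by side at 1 depth, each was thinned at random to 800 UMIs, which left out 5 of the 1504. At that depth Gpc5, a cell surface proteoglycan, had a UMI in 84.4% of the nuclei, the glutamate transporter Slc1a3 in 78.1% and the lipid phosphatase Plpp3 in 73.8%. The gap junction gene Gja1 followed at 41.2%, the neurotensin receptor Ntsr2 at 38.7%, the water channel Aqp4 at 31.6%, the BMP receptor Bmpr1b at 23.1% and the acyl-CoA synthetase Acsbg1 at 19.5%. In a random draw of 1504 nuclei with at least 2 Slc17a7 UMIs (excitatory neurons, median 3862 UMIs against 1309), these shares were 0.399% to 5.85% after the same thinning, the highest being that of Gpc5.

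The nuclei on either side of the limit are described by the genes that set it, which must differ between them. Exactly 3 of the 8 genes were found in 214 nuclei just inside the rule, while 652 nuclei that met its other terms held exactly 2 and fell outside. Slc1a3 had a UMI in 49.3% of the former and 16.9% of the latter, and Gja1 in 11.8% and 2.94%. The nuclei with 2 genes were deeper (median 2688.5 UMIs against 1306) and 90.6% of them had a Meg3 UMI, against 69.2% of those with 3 genes and 49.2% of all astrocyte nuclei. Of the astrocyte nuclei, 336 held 4 of the genes, 402 held 5, 357 held 6, 151 held 7 and 44 held all 8.

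**Figure D1:**
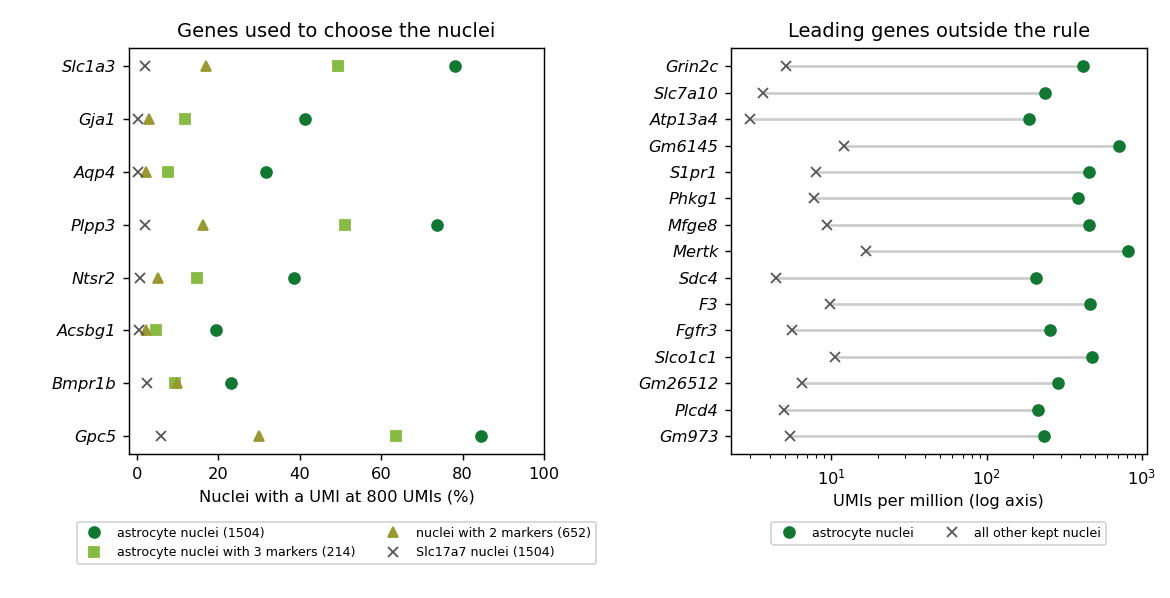
Left, share of nuclei with a UMI (%, after thinning to 800 UMIs) for the 8 genes of the rule in all 1504 astrocyte nuclei, in the 214 with exactly 3 of the genes, in 652 nuclei with exactly 2 (outside the rule) and in 1504 nuclei with at least 2 Slc17a7 UMIs. Right, CPM (log axis) of the 15 leading genes by fold outside the rule, among those found in at least 25% of the nuclei, in astrocyte nuclei and in all other kept nuclei, where Grin2c leads at 82.5-fold.

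Some libraries and nuclei stood apart. A doublet score over 0.2 was given to 222 astrocyte nuclei (14.8%) and to 6.30% of the other kept nuclei, and 346 astrocyte nuclei held 1 neuronal UMI. No barcode was shared between astrocyte nuclei of different libraries, and 3 also occurred in another library among its other barcodes. The summed level of 10 ependymal genes was 163 CPM in astrocyte nuclei of CUS mouse 2 against 8.28 to 29.7 in the other 7 mice, and the summed level of 10 striatal genes was 901 there against 430 to 658. Choroid plexus transcripts were low in the nuclei themselves, where 6 of 18 genes of that list had 0 UMIs, and Ttr had 51 UMIs in all (1, 3, 6 and 1 in control mice, 15, 8, 8 and 9 in CUS mice). Microglial genes summed to 133 to 209 CPM in control mice and to 93.5 to 120 in CUS mice, and endothelial genes to 70.5 to 172 and 98.1 to 174, so that of these 2 lists only the microglial sums did not overlap.

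Members varied most in a few transcripts. Over 3425 genes with a mean of at least 0.05 UMIs per thinned nucleus, the variance was a median of 1.11 times the mean, close to what random sampling of UMIs gives. It was 9.44 times the mean for Ptgds, a prostaglandin synthase of meningeal and oligodendrocyte cells found in 8.87% of the nuclei, 9.00 for Malat1 and 5.56 for the neuronal transcript Meg3. Among astrocyte genes it was 3.64 for Cst3, 3.60 for Apoe, 2.57 for Luzp2 and 2.53 for Gpc5. Myoc, a marker of astrocytes at the brain surface, had a ratio of 2.53 with a UMI in 2.67% of the nuclei. Mice differ in these levels too, so the ratios mix differences among nuclei and among mice.

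The share of astrocyte nuclei was compared between the groups over mice. It was 3.77%, 4.56%, 3.47% and 6.48% in control mice and 8.11%, 3.80%, 4.13% and 4.64% in CUS mice, from 130 to 329 nuclei per mouse. CUS mouse 1 was the highest (95% Wilson interval 7.31% to 8.99%, counting error only), and the remaining CUS mice lay within the control range. The means were 4.57% ± 1.36 (SD, n = 4) and 5.17% ± 1.99 (SD, n = 4), a difference of 0.60 percentage points that was smaller than the spread between mice (two-sided exact permutation test, p = 0.571, where the smallest possible p is 0.0286). Without CUS mouse 1 the difference was −0.38.

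Depth was similar. Astrocyte nuclei had median UMIs of 1073.5, 1522, 1542.5 and 1188 in control mice and 1208, 1198, 1193 and 1340.5 in CUS mice. The CUS medians lay inside the control range, with means of 1332 ± 237 and 1235 ± 70.7 (SD, n = 4 each, exact permutation test, p = 0.429). Median genes were 735 to 1022 in control and 772 to 893 in CUS mice (exact permutation test over 4 mice per group, p = 0.457).

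Gfap, an intermediate filament of fibrous and reactive astrocytes, was detected in few nuclei. After thinning to 800 UMIs it was found in 1.54%, 3.20%, 0.581% and 4.08% of the nuclei of control mice and in 7.34%, 7.69%, 2.03% and 2.21% of those of CUS mice, and in 0.199% of the Slc17a7 nuclei. CUS mice 1 and 2 lay above every control mouse, while CUS mice 3 and 4 lay within the control range. The means of 2.35% ± 1.58 and 4.82% ± 3.12 (SD, n = 4 each) differed by 2.47 percentage points, within the spread between mice (exact permutation test, p = 0.257). Without thinning the shares were 2.31%, 5.00%, 4.07% and 8.16% against 9.73%, 9.16%, 5.37% and 4.42%. They rest on 4 to 45 Gfap UMIs per mouse. The difference was 1.63 points without CUS mouse 1, 1.51 without CUS mouse 2 and 0.63 with at least 1000 genes per nucleus. After thinning to 600 UMIs it was 2.35 points, from 0.68% to 1.82% in control mice and 1.77% to 5.47% in CUS mice (exact permutation test, 4 mice per group, p = 0.0571). In bulk nuclei of the mPFC the Gfap difference had the opposite sign, and its value is given below.

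**Figure D2:**
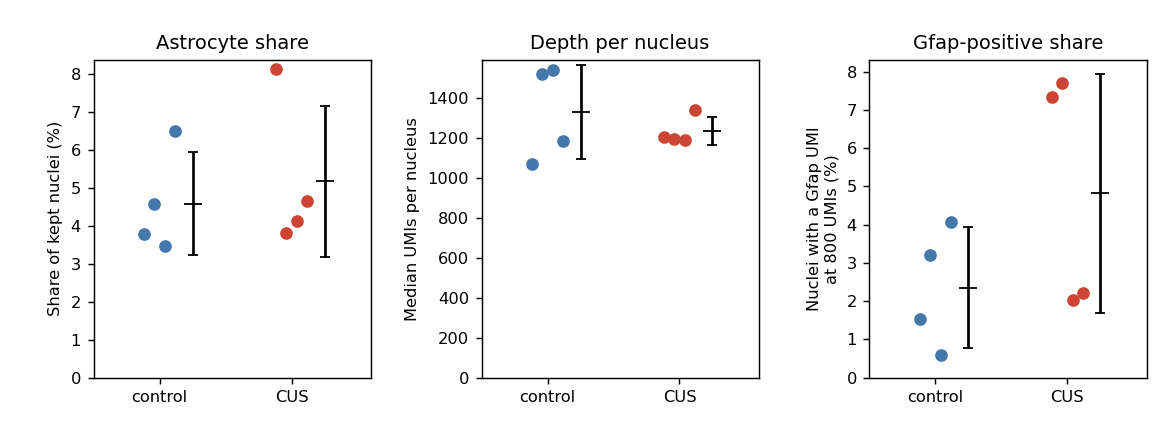
Share of kept nuclei that were astrocyte nuclei (%), median UMIs per astrocyte nucleus, and share of astrocyte nuclei with a Gfap UMI after thinning to 800 UMIs (%), 1 point per mouse with the mean and SD beside the points. Control and CUS mice overlap in all 3 panels, and CUS mouse 1 has the highest astrocyte share at 8.11%.

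To ask which genes CUS altered in astrocyte nuclei, UMIs were summed per mouse (205947 to 507742 UMIs) and tested with edgeR's quasi-likelihood test. Of 3800 genes tested, 0 passed an FDR of 0.2 (0.0% called), and the lowest FDR was 0.249, held by Mt3 and Fhit. At an unadjusted p under 0.05 there were 258 genes (6.79%), 142 higher (3.74%) and 116 lower (3.05%) in CUS mice, and the groups did not overlap for 126 genes (3.32%). With the likelihood ratio test, which the study used with a batch term that is missing here, edgeR called 8 genes, and DESeq2 called 0. The values below are therefore those of genes with the smallest p, none of which passed the test. Under the alternatives of test, filter, depth and mice left out, Fhit was called in 6 and Mt3 in 5, Scd2 and Zfp804b in 3 each, and Zdhhc2 and Selenop in 2 each. Ndst4, a heparan sulfate enzyme gene by which the study names a cluster of excitatory neurons, with too few UMIs for the filter used here and named after its values were seen, was called in 3 alternatives and reached an edgeR FDR of 8.79e-05 with no filter (−1.87), 0.0615 with filterByExpr and 0.00122 without control mouse 1. Adamtsl1 was called in 2 of them (1.81 with filterByExpr, edgeR FDR 0.132). Levels are CPM with TMM factors (edgeR's scaling between libraries), in the order of mice 1 to 4, and differences are log2 CUS minus control with the standard error.

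Mt3 (mm10 chromosome 8, 94152607 to 94154146), the brain metallothionein, was at 49.1, 66.6, 54.9 and 38.7 CPM in control mice and at 151, 44.3, 124 and 132 in CUS mice. Of the CUS mice 3 lay above the control range and CUS mouse 2 lay inside it, with a difference of 1.13 ± 0.27 (edgeR FDR 0.249). Over all mice and without TMM factors, Mt3 was at 91.8 CPM in astrocyte nuclei and 27.5 in the other kept nuclei. This was 3.34-fold, below the 11.4-fold of Mt1 and 22.3-fold of Mt2, so Mt3 was not limited to astrocyte nuclei. Selenop (chromosome 15, 3268547 to 3280508), which carries selenium, was at 83.5, 109, 96.7 and 120 in control and at 155, 182, 190 and 173 in CUS mice. Its groups did not overlap (0.75 ± 0.20, edgeR FDR 0.324). Scd2 (chromosome 19, 44293676 to 44306864), a fatty acid desaturase, was at 427, 442, 366 and 486 in control and at 739, 527, 621 and 659 in CUS mice. These did not overlap either (0.58 ± 0.16, edgeR FDR 0.324). Dbi, an acyl-CoA binding protein, was at 83.5 to 155 and 163 to 256 (0.74), again without overlap. Selenop moved to 0.39 when only nuclei with at least 1000 genes were used.

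Other genes with small p in this direction differ in kind. The palmitoyltransferase gene Zdhhc2 was at 58.9, 33.3, 34.0 and 17.2 in control and at 75.3, 108, 57.9 and 82.1 in CUS mice (1.19 ± 0.30), and its difference was 0.11 when nuclei with 2 of the 8 genes were let in. Nefm (0.84), a neurofilament subunit, is known from neurons. Slc17a7 differed by 0.76 in astrocyte nuclei, where the rule caps its level. The 20 excitatory neuron markers together summed to 14718 to 18884 CPM in control and 15819 to 18641 in CUS astrocyte nuclei. These sums overlapped, and the part of neuronal transcripts in the single genes was not tested. A330023F24Rik (0.77) and Atraid (0.97) were also among the 10 genes.

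Among the lower genes, Fhit (chromosome 14, 9550092 to 11162035), a nucleotide hydrolase within a fragile site, was at 118, 215, 172 and 202 CPM in control mice and at 57.5, 133, 86.9 and 114 in CUS mice. Its lowest control mouse lay inside the CUS range (−0.94 ± 0.22, edgeR FDR 0.249). Rfx3, a factor of cilium genes, was at 255, 333, 371 and 361 in control and 192, 222, 248 and 235 in CUS mice, without overlap (−0.58 ± 0.17, edgeR FDR 0.324). The surface protein genes of neurons Epha6 (−0.58), Lrrtm4 (−0.50) and Lingo2 (−0.50), and the transcript Gm26871 (−0.58), were more abundant in the other nuclei than in astrocyte nuclei. Without the nuclei of high doublet score, Epha6 moved to −0.16, Gm26871 to −0.13 and Lingo2 to 0.09. Zfp804b (−0.94), 2310035C23Rik (−0.78), Ip6k2 (−0.74) and A630089N07Rik (−0.69) complete the 10 genes.

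**Figure D3:**
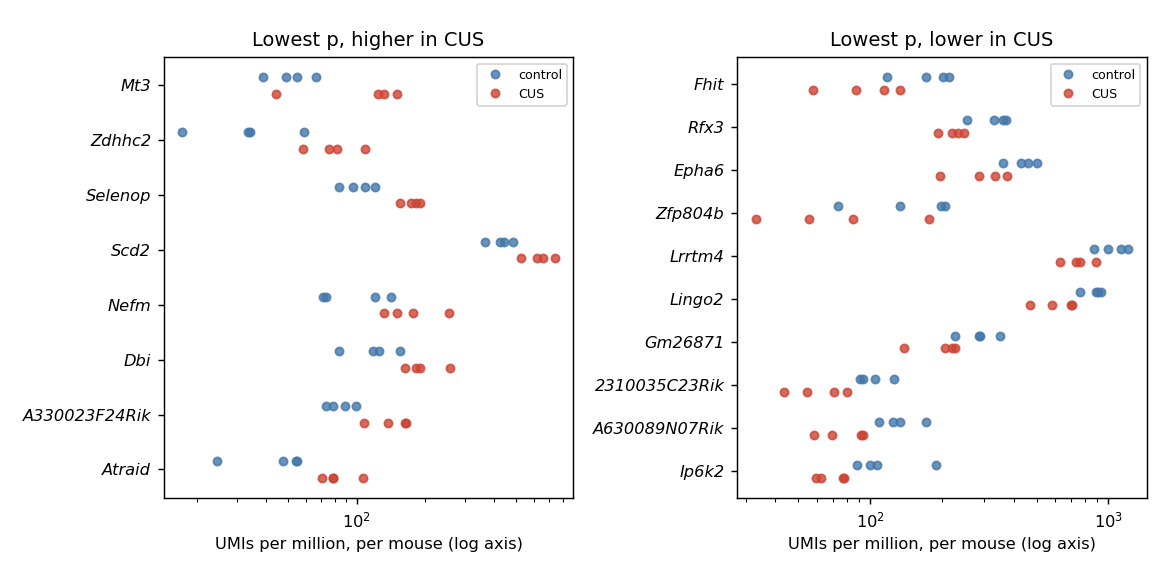
CPM (log axis) in astrocyte nuclei of each mouse for 8 genes that were higher and 10 that were lower in CUS mice among those of smallest p, 1 point per mouse. Control and CUS mice do not overlap for Selenop (83.5 to 120 against 155 to 190), while 1 CUS mouse lies within the control range for Mt3, and no gene passed the FDR of 0.2.

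The genes were then read by function, from lists made for this tissue and treatment with earlier results of these data known. Counts over these lists are therefore a description and carry no test. Counts at an unadjusted p under 0.05 stand against 3.74% higher and 3.05% lower over all 3800 genes, whose median difference was −0.001. The 3 tested metallothioneins, Mt1, Mt2 and Mt3, all lay above 0 with a median of 0.45 and all had a p under that level, while Mt4 had 0 UMIs. Mt1 was at 398, 590, 616 and 529 CPM in control and 955, 453, 728 and 764 in CUS mice (0.45 ± 0.17). Mt2 was at 255, 255, 238 and 271 against 537, 192, 265 and 333 (0.44 ± 0.20). CUS mouse 1 was the highest and CUS mouse 2 the lowest or near it for both, and the groups overlapped. Without CUS mouse 1 the median was 0.28, Mt2 moved to 0.09 and 1 of the 3 genes kept a p under 0.05. Without CUS mouse 2 the median was 0.60. In the other kept nuclei the family summed to 67.6, 81.8, 103 and 78.0 CPM in control and 152, 60.1, 116 and 118 in CUS mice, with the same CUS mice highest and lowest.

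Sterol and lipid genes lay mostly above 0 as well. Of 22 tested, 20 lay above 0, with a median of 0.30, and 6 had an unadjusted p under 0.05, all higher, among them Scd2, the lipoproteins Apoe (0.37) and Clu (0.41), and the receptors Lrp1 (0.40) and Lrp4 (0.61). Apoe was at 2844, 1875, 1970 and 3157 CPM in control and 4010, 2906, 2905 and 2840 in CUS mice. CUS mouse 1 lay far above the remaining CUS mice, which lay within the control range, and without it Apoe differed by 0.23, the list's median was 0.15 and 2 of 22 genes had a p under 0.05. With at least 1000 genes per nucleus the median was 0.16, with 15 genes above and 11 below 0 and 3 of 26 at such a p. The cholesterol synthesis enzyme gene Hmgcs1 differed by 0.16, below its standard error of 0.21.

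Genes of the respiratory chain that are encoded in the nucleus lay above 0 in 28 of 30 cases, with a median of 0.29 and 5 genes at an unadjusted p under 0.05, all higher (Ndufb9, Cox5a, Cox6b1, Cox7c and Cox8a). The summed level of the list was 3502, 3461, 3796 and 3415 CPM in control and 5344, 3270, 4014 and 4108 in CUS mice. CUS mouse 1 was highest and CUS mouse 2 lowest, and without CUS mouse 1 the median was 0.08 and 0 of 29 genes had such a p. In the other kept nuclei 35 genes of the list were tested, with a median of 0.20. The list's sums there were 2986 to 3742 in control and 2884 to 4479 in CUS mice, so values above 0 were not limited to astrocyte nuclei. Heat shock and oxidative stress genes had a median of 0.11 with 0 of 12 at a p under 0.05. Their sums were 2405 to 2683 CPM in control and 3408, 2142, 2466 and 2607 in CUS mice, so only CUS mouse 1 lay above the control mice.

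Astrocyte identity genes outside the rule lay above 0 in 30 of 38 cases, with a median of 0.17. Of these, 7 had an unadjusted p under 0.05, all higher: Mlc1 (0.55), Mfge8 (0.43), Cldn10 (0.43), Clu, Atp1b2 (0.39), Apoe and S1pr1 (0.34). Without CUS mouse 1 or without control mouse 3 this was 2 genes and a median of 0.09, and with high doublet scores left out it was 2 genes and a median of 0.13. The count was 3 with DESeq2 and 2 higher and 1 lower with at least 1000 genes per nucleus, and the median was 0.30 when nuclei with 2 of the 8 genes were let in. In the other kept nuclei only 10 genes of this list were tested, with a median of 0.21. Those nuclei include the 316 and 217 that held at least 3 of the 8 genes but were left out by the other limits. The gene of the main glutamate transporter, Slc1a2, was at 4238, 4635, 4177 and 4705 CPM in control and 4113, 3851, 5148 and 4975 in CUS mice. CUS mice spanned the control range and the difference was 0.03 ± 0.15 (edgeR FDR 0.988). Slc1a3, used in the rule, differed by 0.01.

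Other functions gave few genes. Transmitter uptake and metabolism had a median of 0.04 and glucose, glycogen and lactate genes one of 0.17, with 0 of 13 and 0 of 7 genes at a p under 0.05. Potassium, water and coupling genes had 3 of 15, all higher (Mlc1, Atp1b2 and the chloride channel Clcn2), with a median of 0.17, and receptor and calcium genes 2 of 22 (Adgrg1 at 0.68 and S1pr1), with 11 genes on either side of 0. The potassium list had 0 such genes with DESeq2, 1 of 16 and a median of 0.07 with at least 1000 genes per nucleus, and 4 of 16 and a median of 0.32 when nuclei with 2 of the 8 genes were let in. Secreted and synapse contact genes had 1 of 29, the matrix protein gene Sparc (0.83), and a median of −0.06. Developmental signals and transcription factors had 2 higher, the Notch target Hes5 (0.72) and Nfix (0.52), and 1 lower, Ppargc1a (−0.41), of 32, with a median of −0.03. This balance turned with the nuclei used, to 0 higher and 4 lower of 38 and a median of −0.14 with at least 1000 genes per nucleus and to 5 higher and 0 lower of 33 and a median of 0.08 with nuclei of 2 of the 8 genes let in. Hes5 was at 98.2, 88.8, 125 and 81.7 CPM in control and 192, 133, 194 and 132 in CUS mice, without overlap. Markers of fibrous or white matter astrocytes had 2 of 9, Sparc and the angiotensin precursor gene Agt (0.99), and a median of 0.42, which was 0.24 without CUS mouse 1, 0.18 with at least 1000 genes per nucleus and −0.02 over the 2 genes that could be tested after thinning to 800 UMIs. Agt was at 24.6 to 62.1 in control and at 68.9 to 91.0 in CUS mice, also without overlap. Circadian genes had 0 of 12 and a median of −0.03.

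Of the genes tied to stress hormones and to reactive states, most had too few UMIs for the filter used here. Of 40 genes induced by or receiving glucocorticoids, 8 were tested, and Mt1 and Mt2 were the 2 with a p under 0.05. The glucocorticoid receptor gene Nr3c1 was at 270, 242, 185 and 237 CPM in control and 214, 158, 244 and 205 in CUS mice (−0.16 ± 0.18). The mineralocorticoid receptor gene Nr3c2 was at 172, 357, 214 and 185 against 155, 271, 252 and 182 (−0.21 ± 0.20). Both groups overlapped, and Nr3c2 turned to 0.11 without control mouse 2. Fkbp5 had 47 UMIs over all mice and Sgk1 had 116, below the minimum of this filter. Of 44 reactive astrocyte genes 1 was tested, Id3 (0.24), and Lcn2, Steap4, Emp1, Tm4sf1 and Slc10a6 had 0 UMIs. Of 42 activity genes 2 were tested, Egr1 (0.33) and Homer1 (−0.13), and Fos had 37 UMIs in all. With the looser filter of filterByExpr, 18 glucocorticoid-related genes were tested with 3 higher and 0 lower at an unadjusted p under 0.05, 11 activity genes with 0, and 5 reactive genes with 2 higher, all 5 above 0 with a median of 0.37, against 3.45% of 6292 genes higher at that level. With no filter, 38 reactive genes had 7 higher and 0 lower and a median of 0.46, with 23 above and 15 below 0, 38 glucocorticoid-related genes had 3 higher and 1 lower, and 41 activity genes had 3 higher and 1 lower, against 2.47% of 24018 genes higher. None of the genes of these 3 lists passed an FDR of 0.2 under either filter (edgeR). Without a filter the reactive median includes genes of very few UMIs, such as C3, Hspb1 and Cd14 with 1 UMI each in all. The reactive list summed to 634, 397, 405 and 615 CPM in control and to 846, 704, 571 and 557 in CUS mice. CUS mice 3 and 4 lay within the control range. Yy1, a transcription factor gene named in the study, was at 62.1 to 77.4 in control and 34.5 to 73.3 in CUS mice (−0.16 ± 0.26) and turned to 0.23 in nuclei with 0 neuronal UMIs.

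Markers of other cells within the astrocyte nuclei are given for the same comparison. Of 12 oligodendrocyte genes 2 could be tested, with a median of 0.53, and Mbp differed by 0.42. The summed list was at 638, 550, 465 and 585 CPM in control and 1012, 492, 836 and 824 in CUS mice, so that CUS mice 1, 3 and 4 lay above every control mouse, as they did for Mt3 and Mt1, and CUS mouse 2 lay within the control range. The part of these transcripts in other results was not tested. The defining genes Mog and Opalin were at 0 by the rule. The median was −0.13 over 5 inhibitory neuron genes, 0.02 over 4 striatal genes, 0.16 over 14 excitatory neuron genes, 0.16 over 2 choroid plexus genes and 0.19 over 2 meningeal genes. For oligodendrocyte precursors 1 gene was tested, Tnr (−0.13), and microglial, endothelial and ependymal genes all fell short of the filter.

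To ask whether any difference was particular to astrocyte nuclei, the CUS difference was compared with that in all other kept nuclei of the same mice. In edgeR's quasi-likelihood test of the interaction, with the mouse as a block, 10 of 3800 genes passed an FDR of 0.2 (0.263%). In the other nuclei alone 1 of 5335 genes passed (0.0187%), Mical2 (0.71 ± 0.10, edgeR FDR 0.0975). Zdhhc2 differed by 1.19 in astrocyte nuclei and by −0.03 in the others, an interaction of 1.23 (edgeR FDR 0.127). Slc4a4, the sodium bicarbonate cotransporter of astrocytes, was at 776 to 959 CPM in control and 796 to 1044 in CUS astrocyte nuclei (0.10) and differed by −0.36 in the other nuclei, an interaction of 0.47 (edgeR FDR 0.184). Cacna2d3 (0.70), Foxp1 (0.72) and Agap1 (0.90) also had interactions above 0, and Ccdc141 (−0.88) and the long noncoding RNA Gm3764 (−0.45) had interactions below 0. The count was 0 without CUS mouse 2 or CUS mouse 4, 1 without control mouse 2 or control mouse 4, and 4 without CUS mouse 1 or CUS mouse 3.

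The smallest FDR of the interaction belonged to Rarb (edgeR FDR 0.0346), a retinoic acid receptor gene of striatal neurons. It was at 63.8, 37.7, 49.6 and 51.6 CPM in control and 63.4, 128, 62.1 and 52.5 in CUS astrocyte nuclei (0.55), and at a mean of 102 in control and 68.5 in CUS mice in the other nuclei (−0.58), an interaction of 1.28. In astrocyte nuclei CUS mouse 2 was the one that stood above the rest. The 10 striatal genes in the other nuclei summed to 1130 to 1265 CPM in control mice and to 981, 1454, 830 and 741 in CUS mice. CUS mouse 2 was the highest of the 8 mice in both classes of nuclei, and the remaining CUS mice lay below every control mouse in the other nuclei only. The part of striatal transcripts in the interaction was not tested.

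Bulk nuclear RNA-seq of the mPFC gave an independent set of mice. Libraries held 26188825 to 30525015 counts. In bulk, fewer nuclei of a type and less RNA per nucleus cannot be told apart, and the region, age and time after stress differ from those of the single nuclei. Of 18394 genes, 606 passed edgeR's quasi-likelihood test at an FDR of 0.05 (3.29%), 392 lower (2.13%) and 214 higher (1.16%) in CUS mice. To read astrocyte transcripts there, 294 astrocyte-enriched genes were taken from control mice alone: at least 4-fold higher in astrocyte nuclei than in the other nuclei, and with a UMI in at least 10% of astrocyte nuclei. One of them, Rorb, is also on a list of neuronal markers. These genes are enriched in astrocyte nuclei but not limited to them. Astrocyte nuclei were 4.78% of the kept nuclei, so most counts of a gene near 4-fold can come from other nuclei. That part was not measured in bulk.

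Of the 289 astrocyte-enriched genes measured in bulk, 57 fell in CUS mice (19.7%, against 2.13% of all genes) and 0 rose. An unadjusted p under 0.05 was reached by 143 lower and 4 higher genes, against 11.4% of all genes lower and 10.1% higher at that level, and DESeq2 called 2 higher and the likelihood ratio test 1. Their median difference was −0.20, and 254 (87.9%) lay below 0, against 48.7% of all genes. For 77 of them the groups did not overlap, all lower in CUS mice, against 4.7% of all genes. Their summed level was 14990, 15494, 16486 and 16726 CPM in control mice and 14611, 13693, 14505, 13607 and 13720 in CUS mice. Every CUS mouse lay below every control mouse, and the means were 15924 ± 820 (SD, n = 4) and 14027 ± 488 (SD, n = 5), 11.9% lower in CUS mice. The count of 57 depended on the mice and on the test: it was 14 without CUS mouse 5, 16 without control mouse 2, 17 without CUS mouse 4, 37 without control mouse 4 and 94 with DESeq2.

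**Figure D4:**
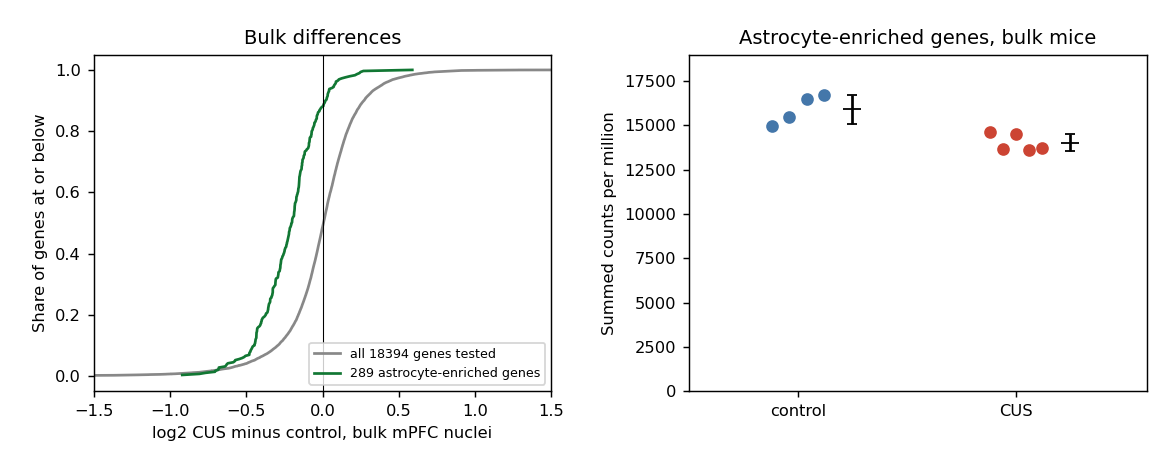
Left, share of genes (0 to 1) at or below each log2 difference between CUS and control mice in bulk mPFC nuclei, for all 18394 genes tested and for 289 astrocyte-enriched genes, of which 87.9% lie below 0. Right, summed CPM of the astrocyte-enriched genes, 1 point per mouse with mean and SD, where the CUS mice (13607 to 14611) lie below the control mice (14990 to 16726).

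Among single astrocyte-enriched genes in bulk, Elovl5 (chromosome 9, 77917364 to 77984519), a fatty acid elongase, was at 43.0, 45.3, 41.4 and 49.2 CPM in control and at 31.6, 31.997, 32.4, 30.4 and 31.2 in CUS mice. The groups did not overlap and it fell by 0.51 on the log2 scale (SE 0.06, edgeR FDR 0.00251). Mlc1 (chromosome 15, 88955884 to 88979007), a membrane protein of astrocyte end feet, was at 18.7, 22.7, 25.3 and 27.2 against 14.2, 13.4, 16.1, 14.0 and 14.3. It fell by 0.70 without overlap (edgeR FDR 0.00566). Dio2, which makes active thyroid hormone, was at 18.1, 22.0, 26.5 and 32.3 against 14.6, 12.6, 16.5, 14.1 and 14.9, and fell by 0.77, also without overlap (edgeR FDR 0.0141). Nat8f3 fell by 0.92, the transcription factor genes Rfx4 and Dbx2 by 0.70 and 0.63, Gabrg1, a GABA receptor subunit, by 0.62, and Zbtb20 by 0.47. Their enrichment in control astrocyte nuclei over the other nuclei was unequal. It was 5.05-fold for Elovl5, 5.69-fold for Zbtb20 and 6.47-fold for Gabrg1. For Rfx4, Dbx2, Mlc1, Dio2 and Nat8f3 it was 28.5-, 32.9-, 35.9-, 42.1- and 64.0-fold.

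Of the 8 genes of the rule, 3 fell in bulk. Gja1 (chromosome 10, 56377330 to 56402513) was at 26.8, 29.98, 29.3 and 36.0 CPM in control and 21.9, 19.9, 22.1, 18.9 and 21.0 in CUS mice, and fell by 0.56 (edgeR FDR 0.00813). Aqp4 was at 35.5, 35.7, 31.7 and 38.4 against 24.3, 23.8, 27.4, 17.1 and 16.5, and fell by 0.69 (edgeR FDR 0.0171). Bmpr1b was at 77.4, 107, 76.7 and 104 against 47.4, 66.4, 59.6, 53.8 and 61.3, and fell by 0.66 (edgeR FDR 0.0136). In all 3 the groups did not overlap. Ntsr2 was at 22.9 to 30.9 in control and 22.5 to 28.8 in CUS mice (−0.01, edgeR FDR 0.983), and Gpc5 (−0.19) and Slc1a3 (−0.20) did not pass the test. Slc1a2 was at 1059 to 1410 and 1046 to 1260 (−0.04, edgeR FDR 0.842). Apoe (−0.43, edgeR FDR 0.0541) and Gfap (−0.58, edgeR FDR 0.0998) did not pass either. Both lay below 0 in bulk, whereas in astrocyte nuclei Apoe differed by 0.37 and the mean Gfap-positive share was higher in CUS mice.

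By function, counts of the same lists in bulk stand against 2.13% of all genes lower and 1.16% higher, again as a description. Sterol and lipid genes gave the largest share among the lists of astrocyte functions in bulk, with 11 of 32 lower and 0 higher and a median of −0.26. They included genes of cholesterol synthesis, Hmgcs1 (−0.40), Sqle (−0.39), Cyp51 (−0.41) and Idi1 (−0.65), of fatty acids, Elovl5, Fads2 (−0.34) and Acsl3 (−0.33, whose position overlaps that of Utp14b, so reads may be shared), and of lipoproteins, Abca1 (−0.35), Clu (−0.40) and Lrp4 (−0.35). Hmgcs1, Sqle, Cyp51 and Idi1 are not among the astrocyte-enriched genes. Potassium, water and coupling genes had 5 of 18 lower (Aqp4, Gja1, Mlc1, Slc4a4 and Slc12a2), and identity genes 7 of 40 (Slc4a4, Clu, Gli3, Mlc1, Slc39a12, Slc7a11 and Dio2), with medians of −0.25 and −0.22 and 0 higher. Developmental signals and transcription factors had 9 of 65 lower, among them Bmpr1b, Gli3, Nfia, Zbtb20 and Dbx2, with a median of −0.16. Transmitter uptake genes had 2 of 16 lower, Slc7a11 (−0.68) and Glud1 (−0.23), and glucose genes 1 of 20, Pygb (−0.23), the latter near the share over all genes.

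The remaining lists in bulk were mixed, again against 2.13% of all genes lower and 1.16% higher. Activity genes had 10 of 41 lower, including Fos (−1.05), Nr4a2 (−1.76) and Cyr61 (−1.77), and Vgf (0.59) higher, and these genes are also expressed by neurons. Of 37 glucocorticoid-related genes Nr3c2 (−0.23), Dusp1 (−0.60) and Tob2 (−0.41) fell and Map3k6 (1.07) rose. The 3 metallothioneins had differences of −0.47, −0.40 and −0.11 for Mt1, Mt2 and Mt3 and 0 passed edgeR's quasi-likelihood test (1 at an unadjusted p under 0.05, and 1 called by DESeq2). Receptor and calcium genes had 2 lower (Gabrg1 and Adgrv1) and 2 higher (Itpr1 and Gria1) of 37, circadian genes 0 lower and 3 higher of 20 (Per2, Per3 and Bhlhe40), secreted and synapse contact genes 2 lower of 44 (Tnc and Megf10), fibrous astrocyte genes 2 lower of 16 (Aqp4 and Tnc), reactive genes 1 lower of 37 (B3gnt5), heat shock genes 1 lower of 31 (Hsph1) and respiratory chain genes 0 of 36, with a median of 0.03. The counts for secreted, reactive and heat shock genes lie near the share over all genes and are no result about those lists.

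Markers of other cell types are given for the same bulk libraries, against 2.13% of all genes called lower and 1.16% called higher. The 12 oligodendrocyte genes had a median of −0.51 with 2 lower, and summed to 346, 525, 784 and 767 CPM in control and 358 to 449 in CUS mice, which overlapped. Meningeal genes had a median of −0.63 with 1 of 10 lower, choroid plexus genes one of −0.25 with 2 of 9 lower and ependymal genes one of −0.30. Precursors of oligodendrocytes summed to 907 to 1119 in control and 1282 to 1431 in CUS mice without overlap, although the median of their 8 genes was −0.05. Striatal genes had a median of −0.88 but summed to 684 to 1191 in control and 1169 to 1411 in CUS mice, so median and sum had opposite signs. The medians of excitatory neuron, inhibitory neuron, microglial and endothelial genes were 0.12, 0.09, −0.04 and 0.02. In each of the lists of excitatory neurons (20 genes), inhibitory neurons (10), striatal neurons (10) and precursors (8), 1 gene was called higher and 0 lower. The part of these differences in the astrocyte values was not tested.

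The genes that fell in bulk were also measured in the astrocyte nuclei of the other mice. Of the 57, 56 were tested there, 26 above and 30 below 0, with a median of −0.03. An unadjusted p under 0.05 was reached by 5 that were higher in CUS astrocyte nuclei (Mlc1, Msmo1, Neat1, Clu and Lrp4) and by 3 that were lower (Pdlim5, Pard3b and Bmp2k). Over all 3800 genes tested in astrocyte nuclei 3.74% were higher and 3.05% lower at that level. Msmo1 is described below and was picked after its values were seen. All 57 had been chosen partly by high levels in these same control astrocyte nuclei. That choice favours values below 0 in this comparison, so the counts and the median carry no test. Msmo1, an enzyme of cholesterol synthesis, was at 334, 242, 277 and 361 CPM in control and 452, 424, 451 and 370 in CUS astrocyte nuclei (0.50 ± 0.16, edgeR FDR 0.407), without overlap, and fell by 0.43 in bulk, where it was at 34.0 to 41.9 and 25.1 to 32.1 CPM. For sterol and lipid genes the medians were 0.30 over 22 genes in astrocyte nuclei and −0.26 over 32 genes in bulk. For identity genes they were 0.17 over 38 and −0.22 over 40, and for metallothioneins 0.45 and −0.40 over 3 each. The sterol and identity medians thus do not rest on the same genes in both. Tissue, age and time after stress differ between these measurements, and no test of the difference between them was made.

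**Figure D5:**
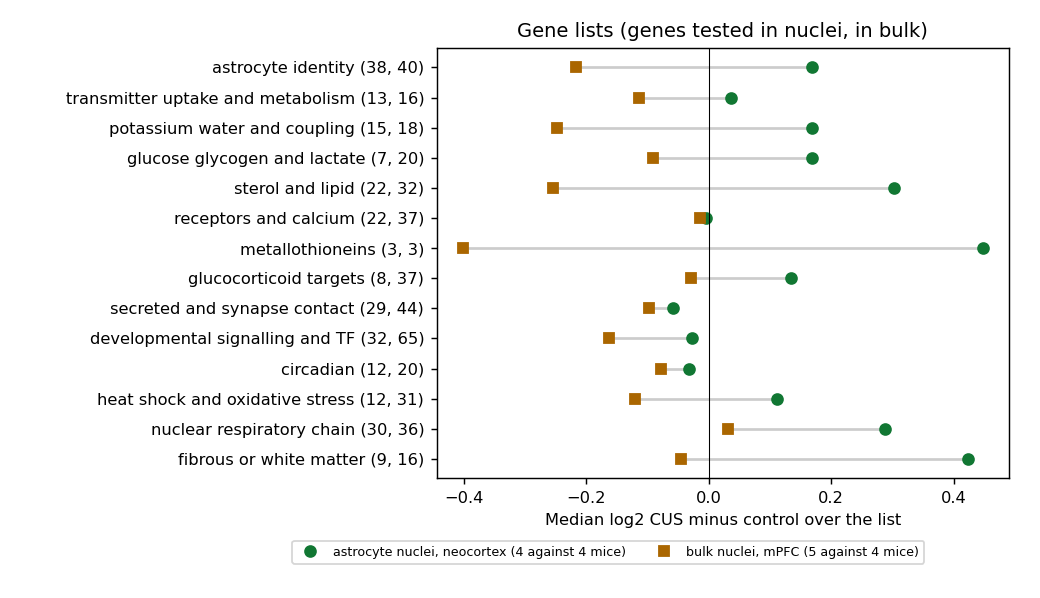
Median log2 difference between CUS and control mice over the tested genes of each list, in astrocyte nuclei of the neocortex and in bulk nuclei of the mPFC, with the numbers of genes tested in each given in brackets. Metallothionein genes lie at 0.45 and −0.40 and sterol and lipid genes at 0.30 and −0.26, while receptor and calcium genes lie near 0 in both.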

How the data were processed

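Bulk nuclear RNA-seq (4 control and 5 CUS mice) and sNucDrop-seq (4 and 4) were analysed. The deposited values are raw counts: reads per gene in bulk, and UMIs per gene and barcode for 5000 barcodes per mouse, which the authors counted on mm10 without normalization, with intronic and exonic reads used for nuclei. PCR copies in bulk are not removed.

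The rule for astrocyte nuclei and the gene lists were chosen with earlier results of these data known. UMIs were summed per mouse and tested with edgeR 4.0.16 (R 4.3.3; quasi-likelihood test, TMM) on genes with more UMIs in all than 10% of the count of nuclei, at a Benjamini-Hochberg FDR of 0.2, and bulk counts after filterByExpr at 0.05. The study's model held a batch term, which could not be fitted here. A Scrublet-like doublet score (expected rate 0.1; scikit-learn 1.9.0) removed no nuclei from the main values. Values per mouse were compared by two-sided exact permutation tests (scipy 1.17.1). The tests were checked on simulated counts with a fixed spread between mice and with changes larger than most reported here. Smaller changes were not simulated. Sequence motifs were searched in RefSeq promoters (GRCm38.p6). Replicate mice differed by more than counting error.

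Genes named are the 10 with the smallest p per direction, those called or with the 2 largest changes per list, the genes of the rule, the 15 leading genes outside it, and Ttr, Mt1 to Mt3, Nr3c1, Nr3c2, Fkbp5, Sgk1, Gfap, Apoe, Slc1a2, Fos and Yy1. Some genes that the rule names are not reported here. Other genes were named after their values were seen. Alternatives were the likelihood ratio test, DESeq2 1.42.0, no TMM factors, other filters on genes and nuclei, other gate limits, thinning, a replicate block and each mouse left out.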

Additional observations from a re-analysis of the deposited data

Results flagged for a closer look

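Of 122 groups of 4 mice examined for a value far from the others, 6 held one by Dixon's test, and chance gives about 1 in 20. Median UMIs per astrocyte nucleus were 1340.5 in CUS mouse 4 against 1193 to 1208 in the other CUS mice. The summed level of activity genes was 1095 CPM (scaled UMIs) in control mouse 3 against 804 to 830 in the other control mice. Striatal genes summed to 658 in control mouse 1 against 453 to 475 and to 901 in CUS mouse 2 against 430 to 505, and ependymal genes to 163 in CUS mouse 2 against 8.28 to 29.7. Apoe was at 4010 in CUS mouse 1 against 2840 to 2906.

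In 10 genes the CUS difference in astrocyte nuclei was not that of the other nuclei by edgeR's interaction test, and 8 of them are given here. The log2 difference of the differences (astrocyte minus other) was 1.28 for Rarb (edgeR FDR 0.0346), 1.23 for Zdhhc2 (0.127), 0.90 for Agap1, 0.72 for Foxp1, 0.70 for Cacna2d3, 0.47 for Slc4a4 and −0.88 for Ccdc141 (all edgeR FDR 0.184), and −0.45 for Gm3764 (edgeR FDR 0.192).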

How the results depend on the processing

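In astrocyte nuclei the count of genes past the FDR was 0 and became 8 with the likelihood ratio test, 4 with filterByExpr, 5 without a filter on low counts and 5 after thinning to 800 UMIs, and ranged from 0 to 5 with a mouse left out (5 without control mouse 1 or CUS mouse 2). The interaction count of 10 became 1 with DESeq2, 2 without TMM factors and 16 without a filter, and 0 to 10 with a mouse left out. In the other nuclei the count of 1 became 7 with DESeq2, 8 with the likelihood ratio test and 399 without a filter, and 0 to 1007 with a mouse left out (1007 without CUS mouse 2). The bulk count of 606 became 1402 with DESeq2 and 1330 with the likelihood ratio test, and 133 to 1508 with a mouse left out (133 without control mouse 2, 140 without CUS mouse 5, 148 without CUS mouse 4, 316 without CUS mouse 3, 352 without CUS mouse 1 and 1508 without control mouse 3). Of the astrocyte-enriched genes, 57 became 94 with DESeq2 and 89 with the likelihood ratio test, 14 to 69 with a mouse left out and, for genes at least 8, 16 or 32 times the other nuclei, 37 of 188, 21 of 102 and 9 of 49 (these alternatives were chosen after seeing the data).

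With the replicate number as a replicate block, 0 genes were called in astrocyte nuclei, 1 in the other nuclei, 238 in bulk and 18 of the astrocyte-enriched genes. Deviations of same-numbered mice correlated at 0.102, −0.0178, 0.089 and −0.114 in astrocyte nuclei and at 0.0334, 0.23, 0.036 and 0.132 in bulk. The labels do not say whether same-numbered mice shared a batch, and these correlations cannot decide it.

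The astrocyte share differed by −0.38 points without CUS mouse 1 (−0.38 to 1.24 over mice left out) and by −0.0346 with at least 1000 genes per nucleus, where median UMIs differed by 104.5 and median genes by 91.9 instead of −96.6 and −59.8. The cause was not tested. With 3 mice in a group, permutation tests cannot reach a p below 0.05. The filter on low counts set how many genes were tested in astrocyte nuclei: 3800, against 6292 with filterByExpr and 24018 with none.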
